A study of Mus musculus with 18 samples.

Results

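The 9 genes *Dusp1*, *Dusp2*, *Dusp4*, *Dusp5*, *Dusp6*, *Dusp7*, *Dusp8*, *Dusp10* and *Dusp16* encode dual-specificity phosphatases that act on MAP kinases. They were chosen by symbol, and all 9 were found among the 19710 genes listed for multipotent progenitors (MPPs), the 19710 listed for CD115- common dendritic cell progenitors (CD115- CDPs) and the 18378 listed for common lymphoid progenitors (CLPs). RNA was sequenced from these 3 bone marrow populations of C57BL/6 mice aged 6 to 8 weeks, sorted as lineage-negative cells on CD117, Sca-1, FLT3, CD34, CD127, CD11c and CD115. WT mice were *Trim33* fl/fl without Cre, and KO mice were *Trim33* fl/fl Cre-ERT2, so both genotypes carried the floxed alleles. Tamoxifen was given as 5 daily injections of 2 mg followed by 7 days without, the mice of both genotypes are described as treated, and the deletion was systemic, so that the surroundings of the progenitors lost the gene too. Each genotype had 3 libraries in each population, 18 in all, described as biological repeats (it is not said how many mice each pooled) and numbered 1, 2 and 3 in both genotypes. The comparison asks which genes depend on TRIM33, a chromatin-binding protein with a ubiquitin ligase domain, in progenitors of dendritic cells.

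MAP kinases are switched on by phosphorylation of a threonine and a tyrosine in their activation loop, and dual-specificity phosphatases remove both phosphates. Several of these phosphatase genes are themselves induced by the kinases they switch off, which makes them a negative feedback and a common transcript readout of recent signalling. *Dusp1*, *Dusp2*, *Dusp4* and *Dusp5* encode nuclear, inducible enzymes, of which DUSP5 acts on ERK alone. *Dusp6* and *Dusp7* encode cytoplasmic enzymes selective for ERK. *Dusp8*, *Dusp10* and *Dusp16* encode enzymes that act mainly on the stress-activated kinases JNK and p38. On GRCm38, *Dusp1* (Entrez 19252) lies at chr17:26505591-26508472, *Dusp2* (Entrez 13537) at chr2:127336159-127338377, *Dusp4* (Entrez 319520) at chr8:34807610-34819894, *Dusp5* (Entrez 240672) at chr19:53529145-53541809 and *Dusp6* (Entrez 67603) at chr10:99263231-99267489. The others are *Dusp7* (Entrez 235584) at chr9:106368560-106375724, *Dusp8* (Entrez 18218) at chr7:142079487-142095907, *Dusp10* (Entrez 63953) at chr1:184034381-184075636 and *Dusp16* (Entrez 70686) at chr6:134715468-134807063. In blood progenitors ERK is activated by cytokine receptors such as FLT3, KIT and the receptors for M-CSF and GM-CSF.

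The promoter windows of *Dusp1*, *Dusp2*, *Dusp5* and *Dusp8* are shown because they hold motifs of factors that act downstream of MAP kinases. *Dusp1* and *Dusp2* also fell in MPPs, as did *Dusp6*, whose window holds none of these motifs. *Dusp5* and *Dusp8* were among the 7 of the 9 genes that followed the replicate number in CD115- CDPs, against 34.2% of all genes. So were *Dusp7*, *Dusp10* and *Dusp16*, whose windows hold none of these motifs. A link between the motifs and the levels was not tested. Each window runs from 250 bases before the transcription start to the 50 bases after it, 300 in all, 5′ to 3′ on the strand of the gene, from RefSeq on GRCm38.p6. Entries existed for 8 of the 9 genes, all but *Dusp4*. Capitals mark every match, on either strand, to the cAMP response element TGACGTCA, the AP-1 site TGACTCA, the E-box CACGTG, the EGR sites GCGTGGGCG and GCGGGGGCG, the ETS site CCGGAAGT or a CArG box, the site of serum response factor. 
*Dusp1* (chr17:26508423-26508722, minus strand): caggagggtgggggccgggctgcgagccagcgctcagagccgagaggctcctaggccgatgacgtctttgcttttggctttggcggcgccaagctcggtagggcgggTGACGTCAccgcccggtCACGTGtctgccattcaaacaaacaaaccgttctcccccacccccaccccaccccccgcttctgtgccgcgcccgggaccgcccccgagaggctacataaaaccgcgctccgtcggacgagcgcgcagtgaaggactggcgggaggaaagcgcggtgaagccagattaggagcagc
*Dusp2* (chr2:127335909-127336208, plus strand): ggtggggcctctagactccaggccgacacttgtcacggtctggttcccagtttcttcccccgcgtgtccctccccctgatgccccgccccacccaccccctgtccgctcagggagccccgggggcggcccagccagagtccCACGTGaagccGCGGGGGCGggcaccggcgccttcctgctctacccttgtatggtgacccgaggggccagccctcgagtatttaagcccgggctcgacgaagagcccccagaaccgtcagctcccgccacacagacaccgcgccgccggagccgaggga
*Dusp5* (chr19:53528895-53529194, plus strand): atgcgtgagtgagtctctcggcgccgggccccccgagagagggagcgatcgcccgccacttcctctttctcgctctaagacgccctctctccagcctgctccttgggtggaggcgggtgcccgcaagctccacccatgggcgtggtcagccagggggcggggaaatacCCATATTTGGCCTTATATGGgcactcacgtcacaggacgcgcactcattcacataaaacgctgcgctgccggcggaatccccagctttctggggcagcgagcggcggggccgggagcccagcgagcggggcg
*Dusp8* (chr7:142095235-142095534, minus strand): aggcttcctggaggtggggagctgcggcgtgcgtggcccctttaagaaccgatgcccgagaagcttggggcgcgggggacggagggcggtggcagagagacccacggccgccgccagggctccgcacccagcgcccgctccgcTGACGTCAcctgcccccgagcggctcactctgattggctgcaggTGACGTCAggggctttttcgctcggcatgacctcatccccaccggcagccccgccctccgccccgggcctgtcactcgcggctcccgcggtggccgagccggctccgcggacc
The *Dusp1* window holds a cAMP response element at -143 to -136 and an E-box at -126 to -121, counted from the start. The *Dusp2* window holds an E-box at -109 to -104 and the site GCGGGGGCG at -98 to -90. The *Dusp5* window holds 2 adjoining CArG boxes, from -82 to -63. The *Dusp8* window holds 2 cAMP response elements, at -107 to -100 and -63 to -56; its start lies 623 bases inside the outermost annotated end of the gene. Among all 32851 windows of 27025 genes, a cAMP response element was found in 1.79%, an E-box in 7.15%, GCGGGGGCG in 2.91%, GCGTGGGCG in 0.612%, a CArG box in 1.63%, TGACTCA in 5.20% and CCGGAAGT in 3.89%. These shares were not matched for base content: the windows shown had 66.7% to 73.3% G and C, against a median of 52.7% over all windows. The windows of *Dusp6*, *Dusp7*, *Dusp10* and *Dusp16* held none of these letters, which says nothing of the factors themselves.

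Levels are given in FPKM, a read count corrected for transcript length and for the reads mapped in the library, and depth was estimated at 18.9 to 21.5 M reads per library. *Trim33*, the deleted gene, was at 10.42, 10.12 and 8.78 FPKM in WT and 9.71, 11.66 and 4.80 FPKM in KO-labelled MPPs, at 14.30, 15.23 and 8.27 against 9.64, 8.28 and 4.03 FPKM in CD115- CDPs, and at 12.36, 7.01 and 8.86 against 7.52, 5.6 and 7.66 FPKM in CLPs. The groups overlapped in every population, so gene-level FPKM do not check the labels. In MPPs KO 1 and KO 2 lay within or above the WT range, and KO 3 lay below it. Whether each KO library had lost the gene was not tested. With the replicate number as a block *Trim33* was lower in CD115- CDPs (limma adjusted p = 0.0258). WT and KO below are the labels of the libraries. All 7 markers of the sorted progenitors were above 0 in every library, among them *Flt3*, which had a mean of 267 FPKM in WT MPPs, 206 FPKM in WT CD115- CDPs and 292 FPKM in WT CLPs. *Csf1r*, which encodes CD115, was at 39.11 to 136.77 FPKM in WT CD115- CDPs although these cells were sorted as CD115-. The libraries number 3 of both genotypes stood apart in CD115- CDPs, as did the libraries number 1 in CLPs, while in MPPs KO 3 differed from KO 1 and KO 2. *Hspa1a*, a heat shock gene, shows this. *Hspa1a* was at 195.51 to 220.60 FPKM in WT MPPs, at 10.70 and 1.88 FPKM in KO 1 and KO 2 and at 116.76 FPKM in KO 3. In CD115- CDPs it was at 379.58 and 232.68 FPKM in the libraries number 3 and at 5.63 to 17.91 FPKM in the others, and in CLPs at 10.56 and 29.98 FPKM in the libraries number 1 and at 358.33 to 1067.87 FPKM in the others.

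*Dusp1*, *Dusp2*, *Dusp5* and *Dusp6* had the 4 highest WT means in all 3 populations, and the other 5 genes were below 20 FPKM on average. In WT MPPs the order was *Dusp1* (878 ± 31.7 FPKM; SD, n = 3 here and below), *Dusp2* (456 ± 15.5 FPKM), *Dusp5* (203 ± 50.4 FPKM) and *Dusp6* (85.9 ± 0.956 FPKM), with no overlap between neighbours. *Dusp7* (6.18 ± 0.525 FPKM), *Dusp16* (4.29 ± 2.77 FPKM), *Dusp4* (3.92 ± 1.28 FPKM) and *Dusp10* (3.59 ± 0.711 FPKM) followed, each overlapping the next, and *Dusp8* was lowest, at 0.913 ± 0.755 FPKM. In WT CD115- CDPs *Dusp5* (215 ± 162 FPKM), *Dusp2* (198 ± 49.5 FPKM) and *Dusp1* (196 ± 166 FPKM) overlapped and could not be ranked. *Dusp6* (27.1 ± 2.54 FPKM) lay below these 3 genes but overlapped *Dusp16*, and *Dusp16* (17.8 ± 19.5 FPKM), *Dusp10* (9.69 ± 6.97 FPKM), *Dusp8* (7.32 ± 6.46 FPKM), *Dusp7* (6.44 ± 3.89 FPKM) and *Dusp4* (5.29 ± 3.81 FPKM) overlapped each next gene. In WT CLPs *Dusp1* (468 ± 246 FPKM) and *Dusp2* (455 ± 130 FPKM) overlapped, and *Dusp5* (201 ± 50.4 FPKM), *Dusp6* (66.3 ± 19.5 FPKM) and *Dusp7* (17.8 ± 0.901 FPKM) followed without overlap. *Dusp10* (6.35 ± 1.94 FPKM) and *Dusp4* (3.77 ± 0.945 FPKM) overlapped, while *Dusp16* (1.0 ± 0.210 FPKM) and *Dusp8* (0.227 ± 0.0569 FPKM) were lower. The 3 populations come in tables that were normalized separately, so levels were not tested between them. WT *Dusp7* was at 5.70 to 6.74 FPKM in MPPs and 17.25 to 18.88 FPKM in CLPs, and WT *Dusp6* at 85.37 to 87.04 FPKM in MPPs, 25.14 to 29.99 FPKM in CD115- CDPs and 44.00 to 80.25 FPKM in CLPs.

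**Figure D1:**
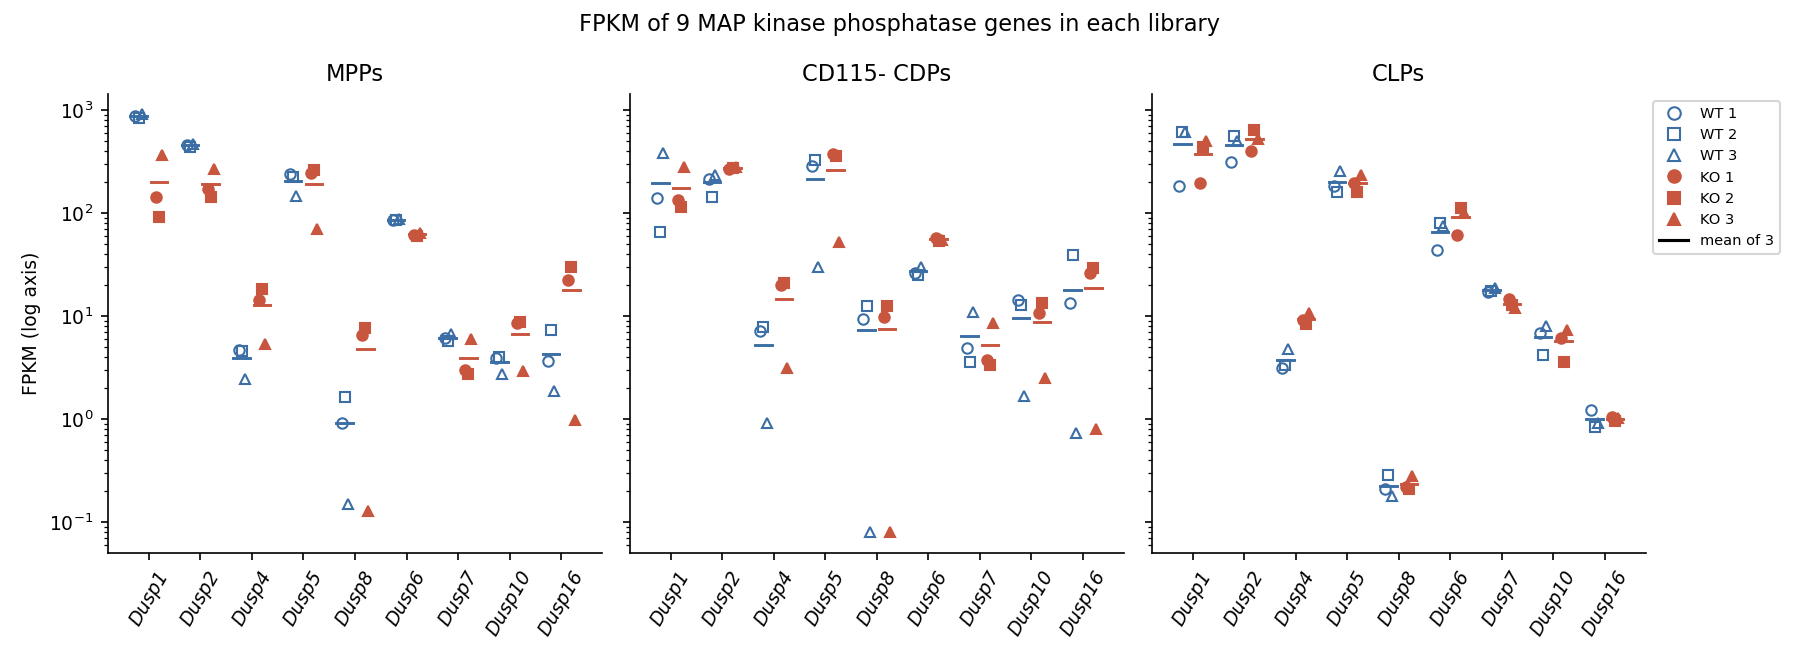
FPKM (log axis) of the 9 phosphatase genes in each of the 18 libraries, by population. Open blue symbols are WT, filled red symbols KO, the shape gives the replicate number and the bars are means of 3 libraries. KO MPPs lie below WT for *Dusp1* and *Dusp2* and above WT for *Dusp4*, and the triangles, libraries number 3, lie apart in CD115- CDPs for *Dusp5*, *Dusp8*, *Dusp10* and *Dusp16*.

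In MPPs *Dusp1* and *Dusp2* fell in KO libraries, *Dusp6* fell by a smaller amount, and *Dusp4* had higher values in every KO library without passing the test. *Dusp1* was at 883.36, 843.98 and 906.81 FPKM in WT and at 142.14, 90.99 and 367.90 FPKM in KO libraries 1, 2 and 3. The groups did not overlap, and KO 3 lay between the WT libraries and the other two. The log2 fold change was -2.38 (SE 0.462, limma adjusted p = 0.0454 over 12372 genes). *Dusp2*, which encodes a nuclear phosphatase of immune cells, was at 455.33, 441.59 and 472.52 FPKM in WT and 169.75, 142.29 and 265.68 FPKM in KO libraries. The groups did not overlap either, and KO 3 was again the highest KO library. Its log2 fold change was -1.29 (SE 0.216, limma adjusted p = 0.0301). These 2 of the 9 genes were called lower (adjusted p of at most 0.05 and a log2 fold change of at least 1 in size), against 1.32% of all genes tested.

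*Dusp6*, the cytoplasmic ERK phosphatase, was at 85.40, 85.37 and 87.04 FPKM in WT and 61.44, 60.56 and 64.35 FPKM in KO MPPs. The libraries of each genotype were close together, KO 3 included. *Dusp6* had a log2 fold change of -0.46 (SE 0.0734, limma adjusted p = 0.0260), short of the size needed for a call. With *Dusp6* included, 3 of the 9 genes passed an adjusted p of 0.05 in the lower direction, against 3.52% of all genes, and none did in the higher, against 0.315%. *Dusp4* was at 4.74, 4.58 and 2.44 FPKM in WT and 14.50, 18.38 and 5.33 FPKM in KO MPPs. Every KO library was above every WT library, and the log2 fold change was 1.37 (SE 0.437, limma adjusted p = 0.132). KO values lay entirely below WT for 3 of the 9 genes, against 23.3% of all genes, and entirely above WT for *Dusp4* alone, against 6.98%.

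The other 5 genes divided the KO MPP libraries rather than the genotypes. *Dusp5* was at 239.26, 225.32 and 145.90 FPKM in WT and 242.82, 263.50 and 69.70 FPKM in KO libraries. *Dusp16* was at 3.70, 7.31 and 1.87 FPKM in WT and 22.61, 29.70 and 0.99 FPKM in KO libraries. *Dusp8* was at 0.93, 1.66 and 0.15 FPKM in WT and 6.55, 7.68 and 0.13 FPKM in KO libraries. For all 3 genes KO 3 was the lowest of the 6 libraries, and KO 1 and KO 2 were the highest. *Dusp10* was at 3.96, 4.04 and 2.77 FPKM in WT and 8.56, 8.75 and 2.93 FPKM in KO libraries, and *Dusp7* at 6.10, 5.70 and 6.74 FPKM in WT and 3.02, 2.73 and 6.07 FPKM in KO libraries. None of these 5 genes passed the test, with limma adjusted p between 0.209 for *Dusp7* and 0.743 for *Dusp5*. Over the 9 genes the median log2 fold change was -0.27, beside -0.11 over all genes tested.

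The calls in MPPs did not hold with 1 library fewer, unless that library was KO 3. Without any 1 WT library the log2 fold change of *Dusp1* was -2.35 to -2.40. All genes called then numbered 54 to 60. Leaving out any 1 library other than KO 3 raised the limma adjusted p of *Dusp1* to between 0.0912 and 0.189, that of *Dusp2* to between 0.0682 and 0.160 and that of *Dusp6* to between 0.0809 and 0.183, and leaving out KO 3 raised the members called from 2 to 6 and all genes called from 183 to 916. Without both libraries number 3, a choice made after seeing the data, 8 of the 9 genes, all but *Dusp5*, had an adjusted p below 0.05, against 49.6% of all genes; the log2 fold change was then -2.91 for *Dusp1*, -1.52 for *Dusp2*, 1.61 for *Dusp4*, 1.84 for *Dusp8* and 2.11 for *Dusp16*. *Dusp1* also lost its call with a pseudocount of 0.1 (limma adjusted p = 0.0527), with no filter on expression (0.0646), with a minimum mean of 5 FPKM (0.0704) and after quantile normalization (0.0667). Median ratio scaling moved the median of all genes from -0.11 to -0.0052 and left *Dusp6* at -0.34 (limma adjusted p = 0.0549).

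Markers of other cells differed between the same MPP libraries. The 9 erythroid markers summed to 361.79 to 390.89 FPKM in WT and 32.20 to 57.94 FPKM in KO libraries, with 8 of 9 passing the adjusted p as lower and as few as 5 of 9 above 0 in a KO library. The 9 monocyte and macrophage markers summed to 574.29 to 592.64 against 173.58 to 249.75 FPKM (5 of 8 tested lower), and the 10 neutrophil markers to 3490 to 3617 against 1567 to 2587 FPKM (4 of 10 lower). *Hspa1a* was low in KO 1 and KO 2, the libraries with the lowest *Dusp1*. The part of these differences in the phosphatase results was not tested. In bulk samples, fewer cells of a type and less RNA per cell cannot be told apart.

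In CD115- CDPs *Dusp6* and *Dusp4* had higher values in KO libraries, and both passed the test once the shared replicate number was taken into account. *Dusp6* was at 26.28, 25.14 and 29.99 FPKM in WT and 57.56, 53.59 and 55.27 FPKM in KO libraries. The groups did not overlap, and the KO value was 2.19, 2.13 and 1.84 times the WT value of the same number. The log2 fold change was 1.01 (SE 0.133, limma adjusted p = 0.0937 over 12229 genes), and with the replicate number as a block it had an SE of 0.0987 and a limma adjusted p of 0.00710. *Dusp4*, which encodes a nuclear phosphatase for ERK and JNK, was at 7.13, 7.84 and 0.91 FPKM in WT and 20.28, 20.78 and 3.13 FPKM in KO libraries. The groups overlapped because both libraries number 3 were low, but within each number the KO library was 2.84, 2.65 and 3.44 times the WT library. The log2 fold change was 1.27 (SE 0.849, limma adjusted p = 0.655), and 1.27 (SE 0.120, limma adjusted p = 0.00634) with the block.

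Without the block 0 of the 9 genes were called in CD115- CDPs by limma, against 0.106% of all genes; at an unadjusted p of at most 0.05 there were 2, *Dusp2* and *Dusp6*, against 10.5% of all genes. With the block 2 were called, both higher, against 0.376% of all genes. At the adjusted p alone the same 2 genes were higher, against 3.78% of all genes, and none was lower, against 5.56%. Without both libraries number 3, chosen after seeing the data, the same 2 genes were called higher, against 0.554% of all genes, with log2 fold changes of 1.08 for *Dusp6* (limma adjusted p = 0.00487) and 1.34 for *Dusp4* (limma adjusted p = 0.00394). *Dusp2* was at 216.57, 142.21 and 235.86 FPKM in WT and 270.02, 272.91 and 278.33 FPKM in KO libraries, a log2 fold change of 0.50 (SE 0.200, limma adjusted p = 0.465, and 0.0820 with the block). *Dusp2* and *Dusp6* were the 2 genes whose KO values lay entirely above WT, against 7.68% of all genes. *Dusp1* was at 139.31, 65.22 and 382.67 FPKM in WT and 133.80, 115.79 and 277.70 FPKM in KO libraries, so that the libraries number 3 were the highest of both genotypes, and its log2 fold change was 0.10 (95% interval -1.47 to 1.67, limma adjusted p = 0.981).

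The remaining members followed the replicate number in CD115- CDPs. *Dusp5* was at 286.11, 329.46 and 30.26 FPKM in WT and 377.23, 360.84 and 52.28 FPKM in KO libraries. *Dusp16* was at 13.51, 39.08 and 0.73 FPKM in WT and 26.49, 29.43 and 0.80 FPKM in KO libraries. *Dusp8* was at 9.38, 12.49 and 0.08 FPKM in WT and 9.76, 12.52 and 0.08 FPKM in KO libraries. All 3 genes were lowest in the libraries number 3, where *Dusp8* had an estimated 7.72 reads at the least. *Dusp10* was at 14.51, 12.86 and 1.69 FPKM in WT and 10.69, 13.33 and 2.49 FPKM in KO libraries, and *Dusp7* ran the other way, at 4.87, 3.58 and 10.87 FPKM in WT and 3.75, 3.33 and 8.52 FPKM in KO libraries. A limma F test of the replicate number with genotype in the model, added after seeing the data, passed an adjusted p of 0.05 for 7 of the 9 genes, all but *Dusp2* and *Dusp6*, against 34.2% of all genes. The adjusted p was 0.000308 for *Dusp8*, 0.000383 for *Dusp5*, 0.000728 for *Dusp4*, 0.00112 for *Dusp16*, 0.00230 for *Dusp10*, 0.00541 for *Dusp7* and 0.0101 for *Dusp1*. The same libraries number 3 had neutrophil markers summing to 4520 FPKM in WT and 4446 FPKM in KO, against 694.79 to 1064 FPKM in the other 4 libraries, and monocyte and macrophage markers summing to 2308 FPKM in WT 3 and 389.56 FPKM in KO 3, against 130.43 to 386.69 FPKM. Between genotypes, the plasmacytoid dendritic cell markers summed to 440.53 to 817.20 FPKM in WT and 176.44 to 421.63 FPKM in KO without overlap, with none of 7 tested passing without the block and 6 of 7 lower with it. Of the 9 monocyte and macrophage markers none passed without the block and 5 were lower with it. The part of these cells in the replicate pattern and in the differences of *Dusp4* and *Dusp6* was not tested.

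In CLPs *Dusp4* rose in KO libraries, *Dusp7* fell slightly, and *Dusp6* was higher in KO within each replicate number but passed the test only with the number as a block. *Dusp4* was at 3.11, 3.34 and 4.85 FPKM in WT and 9.16, 8.47 and 10.69 FPKM in KO libraries. The groups did not overlap, and no library stood apart. The log2 fold change was 1.14 (SE 0.162, limma adjusted p = 0.00239 over 12339 genes). It was the 1 gene called of the 8 tested, against 0.673% of all genes called higher, and it was also called when any of the 6 libraries was left out. *Dusp7* was at 17.25, 17.40 and 18.88 FPKM in WT and 14.80, 12.88 and 11.95 FPKM in KO libraries. Its groups did not overlap, and the log2 fold change was -0.41 (SE 0.112, limma adjusted p = 0.0434), 1 of the 8 genes to pass as lower, against 8.92% of all genes. *Dusp7* did not pass when WT 2, WT 3, KO 2 or KO 3 was left out (limma adjusted p of 0.111 to 0.151). It also did not pass with no filter on expression (0.0579), as TPM (0.0532), after quantile normalization (0.0525) or without a trend (0.0502).

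*Dusp6* was at 44.00, 80.25 and 74.56 FPKM in WT and 60.84, 111.50 and 100.74 FPKM in KO CLPs. The libraries number 1 were the lowest of both genotypes, and the KO value was 1.38, 1.39 and 1.35 times the WT value of the same number. The log2 fold change of 0.45 had an SE of 0.274 and a limma adjusted p of 0.316 without the block and an SE of 0.0904 and a limma adjusted p of 0.0108 with it. With the block *Dusp4* and *Dusp6* passed the adjusted p as higher, against 8.44% of all genes, and without both libraries number 1, again chosen after seeing the data, the same 2 genes were, against 10.1%; without the block *Dusp4* alone was, against 5.41%. *Dusp1* was at 184.22, 607.05 and 613.61 FPKM in WT and 194.54, 441.66 and 495.82 FPKM in KO libraries, and *Dusp2* at 310.39, 560.71 and 495.00 FPKM in WT and 399.52, 638.60 and 525.85 FPKM in KO libraries. Both genes were lowest in the libraries number 1 of each genotype, and neither passed the test (limma adjusted p = 0.806 and 0.610). KO values lay entirely above WT for *Dusp4* alone, against 15.3% of all genes, and entirely below WT for *Dusp7* alone, against 18.6%.

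*Dusp5* was at 184.96, 161.23 and 257.85 FPKM in WT and 194.41, 160.39 and 232.78 FPKM in KO CLPs, a log2 fold change of -0.03 (95% interval -0.47 to 0.42). *Dusp10* was at 6.82, 4.21 and 8.01 FPKM in WT and 6.12, 3.63 and 7.42 FPKM in KO libraries, a log2 fold change of -0.13 (95% interval -0.73 to 0.47), and *Dusp16* at 1.24, 0.84 and 0.93 FPKM in WT and 1.05, 0.97 and 1.02 FPKM in KO libraries, a log2 fold change of 0.01 (95% interval -0.28 to 0.30). The genotypes overlapped for all 3 genes. *Dusp8* was at 0.18 to 0.29 FPKM in WT and 0.21 to 0.28 FPKM in KO libraries and fell under the filter of a mean of 0.5 FPKM, so it was not tested. The replicate number passed the adjusted p for *Dusp1* (0.00520) and *Dusp6* (0.0185) in CLPs, against 1.06% of all genes. In MPPs it gave none of the 9 genes and 0.0% of all genes by limma, although 5 of the 9 genes and 1000 of all 12372 genes (8.08%) had an unadjusted p of at most 0.05. In KO CLPs the 8 plasmacytoid dendritic cell markers summed to 363.70 to 387.61 FPKM, against 1664 to 1986 FPKM in WT (8 of 8 lower), the monocyte and macrophage markers to 108.92 to 153.09 against 498.17 to 605.22 FPKM (4 of 7 tested lower), and the erythroid markers to 5.74 to 9.97 against 34.64 to 56.80 FPKM (3 of 5 tested lower); their part in the rise of *Dusp4* was not tested.

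**Figure D2:**
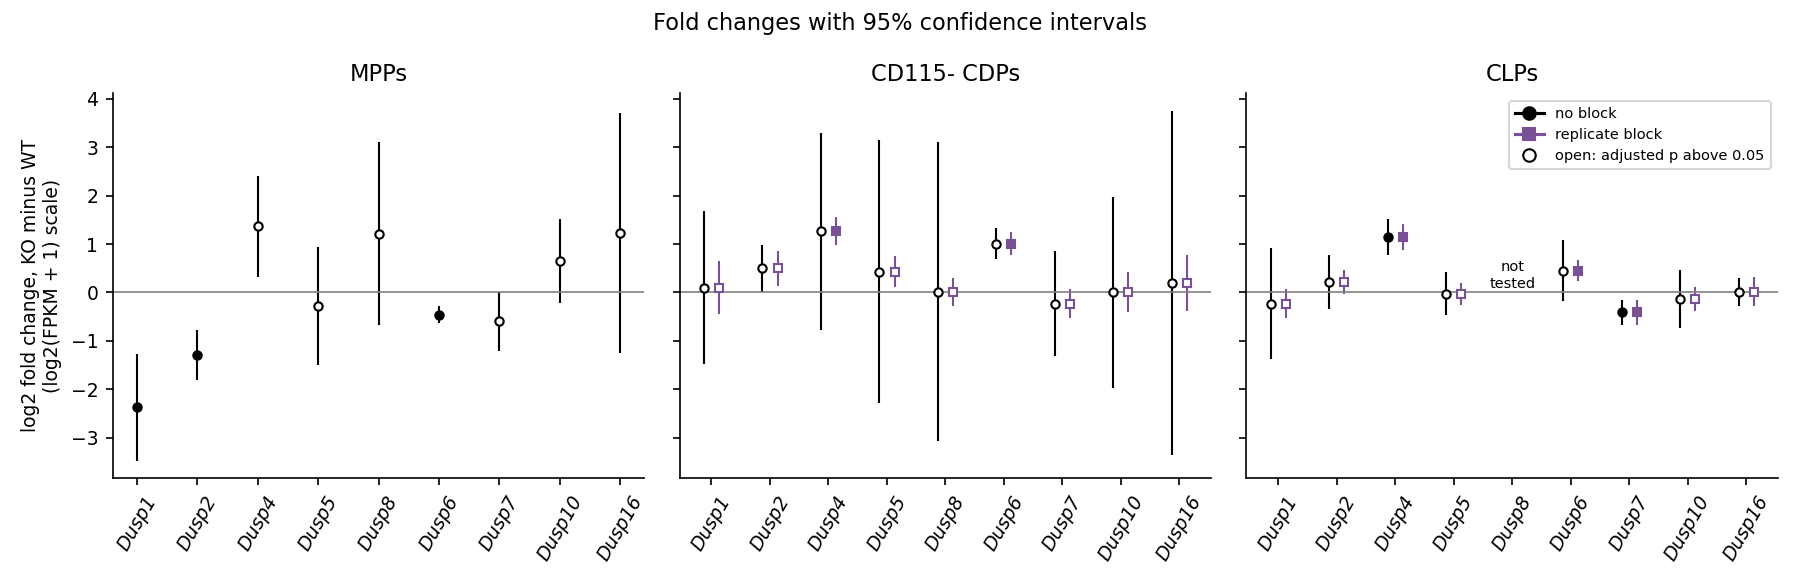
Log2 fold change of KO against WT on the log2(FPKM + 1) scale for each phosphatase gene and population, with 95% confidence intervals from limma. Black circles are fits without and purple squares fits with the replicate number as a block, which is shown for CD115- CDPs and CLPs, and filled symbols have an adjusted p of at most 0.05. *Dusp4* lies at 1.37, 1.27 and 1.14 in the 3 populations, whereas *Dusp6* lies at -0.46 in MPPs and at 1.01 and 0.45 in CD115- CDPs and CLPs.

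The genotype difference of *Dusp2* and *Dusp6* differed between populations. When the difference of the genotype effect between populations was tested across the 18 libraries together, the limma adjusted p was 0.0221 for *Dusp2* and 0.0340 for *Dusp6*. These were 2 of the 9 genes, against 2.45% of the 12421 genes tested. For *Dusp6* the log2 fold change in CD115- CDPs exceeded that in MPPs by 1.47 (SE 0.297) and that in CLPs exceeded that in MPPs by 0.91 (SE 0.297). For *Dusp2* these differences were 1.79 and 1.5 (SE 0.358 for both). *Dusp1*, which fell in MPPs, did not pass this test (limma adjusted p = 0.263). It passed with the replicate number as a block (limma adjusted p = 0.0142), although the MPP libraries number 1 did not vary together. For *Dusp4* the fold change differed by -0.10 (SE 0.898) between CD115- CDPs and MPPs and by -0.23 (SE 0.898) between CLPs and MPPs (limma adjusted p = 0.983), and these wide errors do not show that its change was alike. The test uses 1 estimate of spread for 3 populations whose replicates differed in spread, and on simulated data it exceeded its nominal share of false calls.

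**Figure D3:**
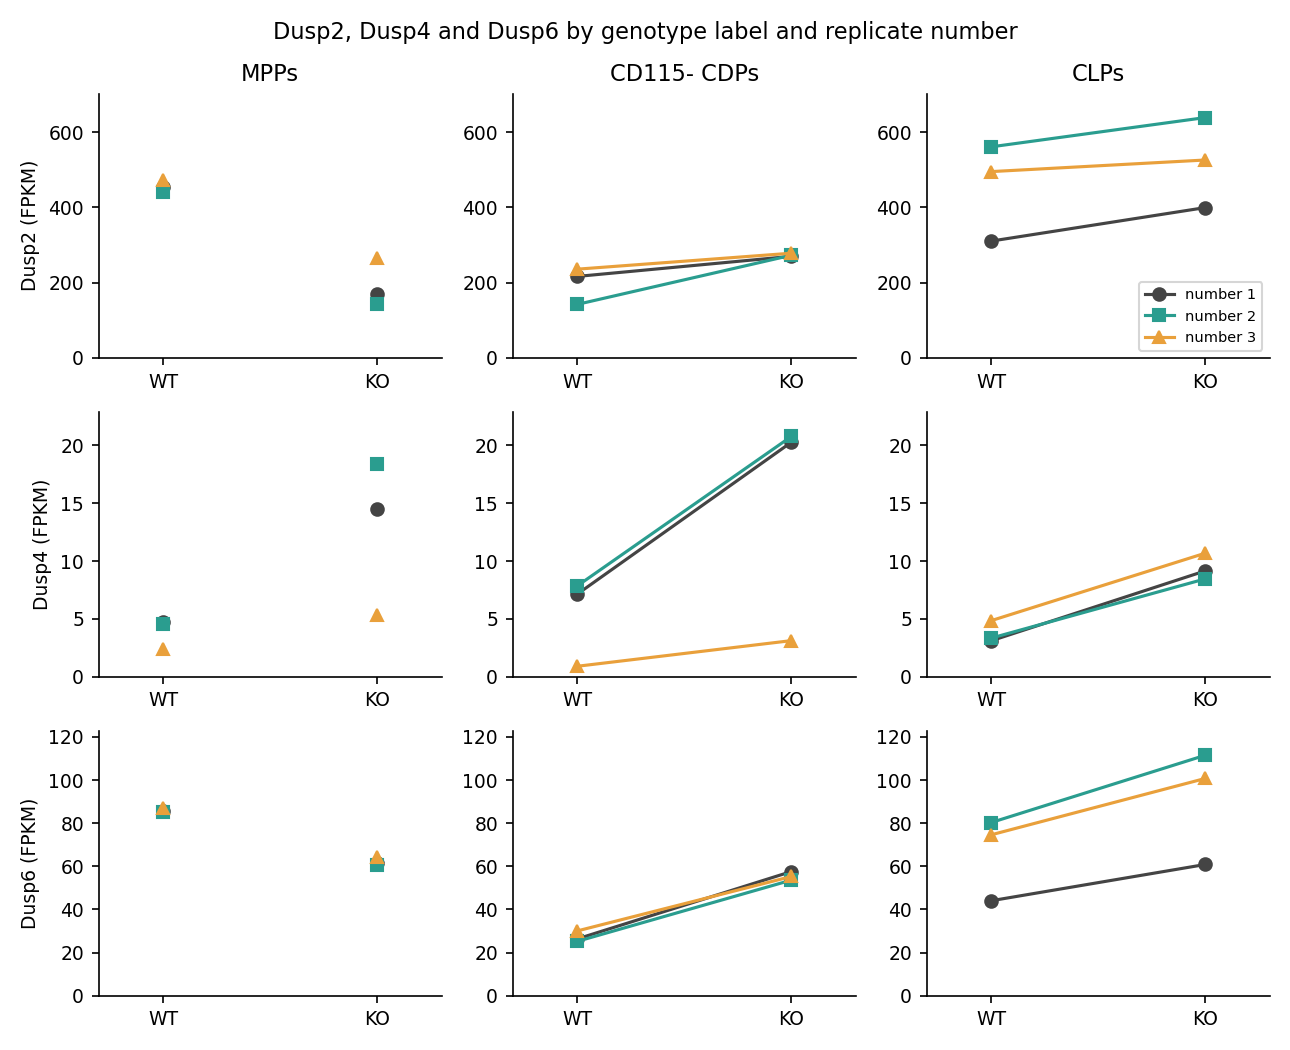
FPKM of *Dusp2*, *Dusp4* and *Dusp6* in WT and KO libraries of each population, with axes starting at 0. Symbols give the replicate number, and lines join libraries of the same number in CD115- CDPs and CLPs. *Dusp6* is lower in KO MPPs and rises along all 3 lines of CD115- CDPs and of CLPs, and *Dusp4* rises along all 6 lines.

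Other genes of the pathway are given by lists, counted where the adjusted p passed 0.05. In MPPs 9 of 20 immediate early genes, which ERK and the stress kinases induce within minutes, were lower in KO and none was higher, with a median log2 fold change of -0.92. *Egr1*, a transcription factor induced by ERK, was at 914.86, 818.11 and 688.71 FPKM in WT and 100.53, 86.09 and 107.54 FPKM in KO MPPs, a log2 fold change of -3.02 (SE 0.132, limma adjusted p = 0.000568). *Egr1* was at a like level in KO 1, KO 2 and KO 3, whereas *Dusp1* in KO 3 lay between the WT libraries and the other KO libraries. *Jun*, an AP-1 subunit, was at 1739.52, 1605.10 and 1519.19 FPKM in WT and 422.00, 347.42 and 620.41 FPKM in KO (log2 fold change -1.85, limma adjusted p = 0.00854), and *Btg2*, an antiproliferative gene, at 197.94 to 220.63 FPKM in WT and 43.27 to 58.13 FPKM in KO (log2 fold change -2.04, limma adjusted p = 0.00182). *Fos*, another AP-1 subunit, was at 2589.97, 2467.71 and 2721.37 FPKM in WT and 343.62, 206.65 and 1187.86 FPKM in KO, with KO 3 between the groups as for *Dusp1* (log2 fold change -2.56, limma adjusted p = 0.0655). *Ier2* was at 870.94, 790.75 and 761.67 FPKM in WT and 502.66, 447.87 and 326.22 FPKM in KO (log2 fold change -0.94, limma adjusted p = 0.0328), and did not pass after median ratio scaling (limma adjusted p = 0.0861), after quantile normalization (0.0613) or without WT 1, WT 2, WT 3 or KO 2 (0.0877 to 0.171). *Jun* did not pass without any 1 of the WT libraries (0.0582 to 0.0654). Among receptors upstream of ERK, *Csf1r* (log2 fold change -1.59) and *Kit* (-0.94) were lower in MPPs, of which *Kit* did not pass without WT 1, WT 2, WT 3, KO 1 or KO 2 (limma adjusted p of 0.113 to 0.194), with a pseudocount of 0.1 (0.0517), with no filter (0.0579) or with a minimum mean of 5 FPKM (0.0674). *Kit* also did not pass with the replicate number as a block (limma adjusted p = 0.0512). *Dnajb1*, a co-chaperone, was the 1 of 8 heat shock genes to pass, with a log2 fold change of -0.95. It did not pass without any 1 of the WT libraries (limma adjusted p of 0.0715 to 0.0820).

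Among other inhibitors and outputs of ERK, 1 gene of each list rose in MPPs and none fell. *Spry4*, 1 of 7 other ERK feedback inhibitors tested, rose from 0.51, 0.54 and 0.41 FPKM in WT to 1.87, 2.38 and 1.92 FPKM in KO (log2 fold change 1.04, SE 0.117, limma adjusted p = 0.00919). *Etv4*, 1 of 6 ERK output genes tested, rose from 0.04, 0.09 and 0.17 FPKM to 1.5, 1.98 and 2.15 FPKM (log2 fold change 1.38, SE 0.127, limma adjusted p = 0.00449). Neither set of KO values overlapped WT, and KO 3 did not stand apart. Both genes averaged below the filter of 0.5 FPKM in WT and entered the test through their KO values. *Spry4* did not pass without any 1 of the WT libraries (limma adjusted p of 0.0715 to 0.0820). None of 9 MAP kinases, 7 MAP kinase kinases, 12 genes from RAS and RAF to ERK and 13 other dual-specificity phosphatases passed the test in MPPs by limma.

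In CD115- CDPs none of 20 immediate early genes passed without the block, and 3 were higher with it, *Atf3*, *Klf6* and *Myc*. *Egr1* was at 160.71, 52.21 and 133.98 FPKM in WT and 73.99, 75.36 and 78.00 FPKM in KO, *Fos* at 415.32, 162.37 and 1656.93 against 337.28, 219.81 and 863.68 FPKM, *Jun* at 605.16, 300.94 and 695.99 against 470.93, 376.48 and 593.04 FPKM, and *Ier2* at 577.64, 385.45 and 380.85 against 542.20, 598.37 and 371.41 FPKM. The genotypes overlapped for all 4 genes, and *Fos* was highest in the libraries number 3, as was *Dusp1*. With the block *Spry4* (limma adjusted p = 0.0350) and *Etv4* (limma adjusted p = 0.0406) were higher, as they were in MPPs without it, and *Epha2* was lower. *Csf2rb2*, a chain of the IL-3 receptor, was the 1 of 9 receptors lower without the block, from 14.54, 15.72 and 16.38 FPKM to 2.67, 1.74 and 2.19 FPKM (log2 fold change -2.38, limma adjusted p = 0.0177). *Csf2rb2* did not pass without WT 1, WT 2, KO 1 or KO 2 (limma adjusted p of 0.0888 to 0.186) or with no filter on expression (0.0594). With the block 5 receptors were lower, *Csf1r*, *Csf2ra*, *Csf2rb*, *Csf2rb2* and *Il7r*. None of the kinase lists passed without the block by limma, and *Mapk7* was lower with it, while the heat shock genes *Hspd1* and *Hspe1* were higher with it. The 14 other dual-specificity phosphatases tested did not pass either way by limma.

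In CLPs 3 of 7 other ERK feedback inhibitors rose in KO and none fell. *Spry4* rose from 1.15, 1.12 and 0.97 FPKM to 2.65, 2.95 and 2.05 FPKM (log2 fold change 0.76, limma adjusted p = 0.00768), *Spred1* by 0.63 (limma adjusted p = 0.0181) and *Spry2* by 0.60 (limma adjusted p = 0.0466) on the log2 scale. As TPM only *Spry4* passed, with a limma adjusted p of 0.0544 for *Spred1* and 0.0996 for *Spry2*. Without WT 2, WT 3, KO 1 or KO 3 neither *Spred1* (0.0618 to 0.0731) nor *Spry2* (0.0960 to 0.162) passed, and *Spry2* also failed with no filter on expression (0.0932) and without a trend (0.0554). The median log2 fold change of this list was 0.45 in CLPs, 0.30 in CD115- CDPs and 0.74 in MPPs, beside 0.0076, -0.0748 and -0.11 over all genes. Of the 7 genes tested 1 passed in MPPs and 0 in CD115- CDPs without the block. The replicate number passed for 6 of the 7 in CD115- CDPs, against 34.2% of all genes. Of 6 ERK output genes in CLPs 2 fell, the receptor *Epha2* (-2.17) and the cyclin *Ccnd1* (-0.91). Of 20 immediate early genes there *Myc* alone passed, with a log2 fold change of 0.74 (limma adjusted p = 0.00183). *Egr1* was at 229.33, 303.96 and 416.78 FPKM in WT and 54.05, 146.92 and 304.52 FPKM in KO CLPs (log2 fold change -1.19, limma adjusted p = 0.177, and 0.0142 with the block). *Fos* was at 1106.35, 2304.08 and 2313.03 FPKM in WT and 962.86, 1662.13 and 1965.87 FPKM in KO, *Jun* at 488.95, 1276.74 and 1540.89 against 579.89, 987.59 and 1390.14 FPKM, and *Ier2* at 295.07, 521.21 and 562.30 against 322.65, 444.66 and 484.81 FPKM. These 3 genes were lowest in the libraries number 1, as *Dusp1* and *Dusp2* were, and overlapped between genotypes. Of 8 receptors tested 5 were lower, led by *Csf2rb2* (-3.36), *Csf1r* (-1.65) and *Csf2rb* (-1.63), and *Kit* was higher (0.60). *Mapk7*, which encodes a further ERK, fell by 0.70 on the log2 scale (limma adjusted p = 0.00715), *Ksr1*, a scaffold for RAF and MEK, rose by 0.64, the adaptor *Shc1* fell by 0.34 and *Dusp28* fell by 0.47. *Shc1* did not pass without any 1 of the 6 libraries, and *Dusp28* did not without any 1 except WT 1. *Hspd1* was the 1 of 8 heat shock genes to pass (log2 fold change 0.66). It did not pass without WT 2 (limma adjusted p = 0.0849) or KO 3 (0.0754). Blocking by replicate number, 3 immediate early genes were higher, *Atf3*, *Klf6* and *Myc*, and 4 were lower, *Egr1*, *Egr2*, *Ier5* and *Btg2*. The block also added *Phlda1*, *Spred3* and *Hsp90aa1* as higher and *Mapk3*, which encodes an ERK, as lower.

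**Figure D4:**
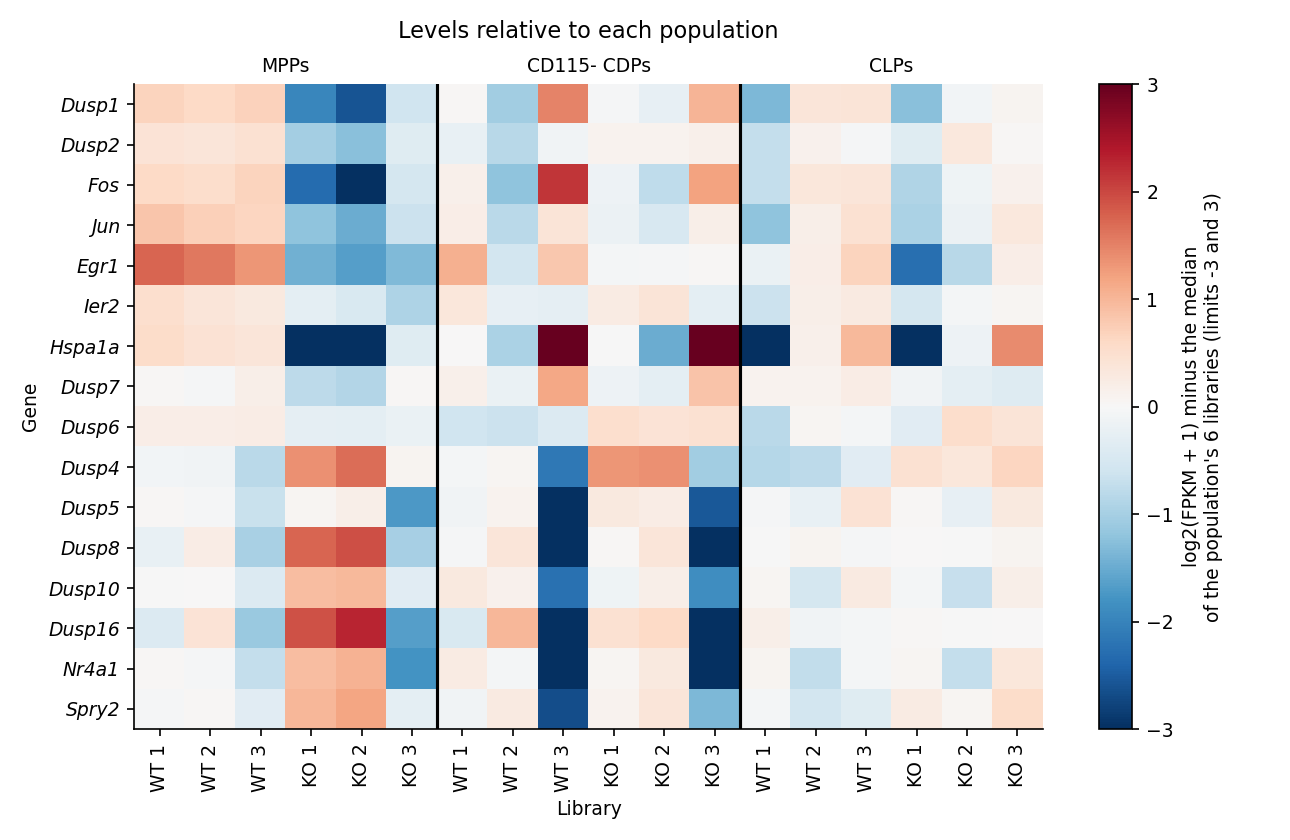
Log2(FPKM + 1) of the phosphatase genes and of 7 genes shown for comparison, minus the median of the 6 libraries of the same population, with the colour limited at -3 and 3. *Dusp1* and *Dusp2* are lowest in the MPP libraries KO 1 and KO 2, as are *Fos*, *Jun* and *Hspa1a*, while *Dusp8*, *Dusp10*, *Dusp16*, *Nr4a1* and *Spry2* are highest there and are lowest in CD115- CDP libraries number 3.

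The genes most like each member were found by Pearson's r of log2(FPKM + 1) over the 18 libraries, among the 11444 genes in all 3 tables whose average reached 1 FPKM. The libraries share populations, genotypes and replicate numbers, so these values describe the libraries and carry no test. *Dusp1* was most like *Fos* (0.961), *Jun* (0.959) and *Zfp36* (0.950), all immediate early genes, followed by *Rdh14* (0.932). After the mean of each population and genotype was taken off, its nearest genes were *Hspa1a* (0.963), *Zfp36* (0.959), *Fos* (0.958), *Hspa1b* (0.951) and *Cdca3* (0.947), so that it varied within groups with heat shock as well as immediate early genes. *Dusp2* was most like *Sigirr* (0.905), *Pbx2* (0.894), *Il16* (0.889), *1700030K09Rik* (0.880) and *Tbc1d10c* (0.878), and within groups like *Bin1* (0.947), *Pkig* (0.937), *Tcf19* (0.912), *Ccnd3* (0.910) and *Prim2* (0.899). *Dusp5* was most like *Gpr171* (0.947), the orphan nuclear receptor gene *Nr4a1* (0.929), *Lif* (0.914), *Csrnp1* (0.911) and *Tsc22d1* (0.905).

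*Dusp4*, *Dusp5*, *Dusp8*, *Dusp10* and *Dusp16* correlated with one another within groups, but many other genes were closer to some of them. Among 11444 genes *Dusp10* ranked 855 in likeness to *Dusp16* and 513 in likeness to *Dusp8*, and *Dusp4* ranked 375 in likeness to *Dusp16*. With group means taken off, *Dusp4* and *Dusp5* had an r of 0.987, *Dusp8* and *Dusp16* of 0.987, *Dusp5* and *Dusp10* of 0.978, and *Dusp10* and *Dusp16*, the least like pair of the 5, of 0.901. *Dusp7* ran against all 5 of them, with r from -0.979 with *Dusp8* to -0.911 with *Dusp10*. Within groups *Dusp4* was nearest to *Ets2* (0.987), *Dusp5* to *Ets2* (0.991), *Dusp10* to *Nr4a1* (0.988), *Dusp8* to *Metrnl* (0.995) and *Dusp16* to *Tatdn2* (0.997). Over all 18 libraries *Dusp16* was most like *Relb* (0.995), *Rela* (0.995), *Metrnl* (0.993), *Ppp2r2a* (0.992) and *Nfkb2* (0.990), of which *Relb*, *Rela* and *Nfkb2* encode NF-kB subunits. *Dusp8* was most like *Vps37b* (0.992), *Bsdc1* (0.991), *Bhlhe40* (0.989), *Gzmb* (0.988) and *Tmem200b* (0.987), and *Dusp10* like *Stk17b* (0.966), *Map3k8* (0.955), *Dyrk2* (0.950), *Zbtb21* (0.945) and *Sprtn* (0.939). *Dusp4* was most like *Emp1* (0.933), *Frmd6* (0.926), *Il1r2* (0.911), *Tor1aip2* (0.910) and *R74862* (0.908). *Dusp7* was most like *Gpd1l* (0.976), *Uhrf1* (0.976), *Bpnt1* (0.967), *Lmnb2* (0.962) and *Ap1ar* (0.961), and *Dusp6* like *Acy3* (0.895), *Gstt2* (0.881), *Cd81* (0.876), *Sstr2* (0.875) and *Pigx* (0.872), the lowest values among the 9 genes.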

How the data were processed

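RNA-seq was performed by the authors on MPPs, CD115- CDPs and CLPs from WT and KO mice, 3 libraries for each group and 18 in all. Reads of 50 bases, single-end, were cleaned by the authors with SOAPnuke. Per the submitters' processing notes, HISAT2 2.0.4, Bowtie2 2.2.5 and RSEM 1.2.12 were used with the build mm10. The deposited values are FPKM per gene, rounded by the authors to 2 decimals, and whole read counts were not recovered from them. The depth of 18.9 to 21.5 M reads was estimated from the steps between low FPKM, with transcript lengths from GENCODE. The members and lists were chosen with earlier results of these data known.

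Each population was tested by itself in R 4.3.3, on log2(FPKM + 1), keeping genes that averaged 0.5 FPKM or more in its 6 libraries. The linear model and the moderated test with an intensity trend came from limma 3.58.1, with Benjamini-Hochberg adjustment over all genes tested. On this scale the fold change of a gene at a few FPKM is smaller than the ratio of its FPKM. A gene was called at an adjusted p up to 0.05 together with a log2 fold change of 1 or more in size. The interaction was a limma F test over 18 libraries. The fits were tested on simulated data, in which the interaction test exceeded its nominal share of false calls.

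The replicate block is taken from the numbers 1, 2 and 3 in the sample titles, which the labels do not tie to a litter or day. The deviations of same-numbered libraries from their group means had correlations over genes of 0.44, 0.67 and 0.79 in CD115- CDPs and 0.40, 0.33 and 0.13 in CLPs. Every value exceeded 0.1 in both populations, so the blocked value is given beside results it changes. Some libraries of unlike number correlated better than same-numbered ones. WT 2 with KO 1 reached 0.66 in CD115- CDPs, above the 0.44 of WT 1 with KO 1. WT 3 with KO 2 reached 0.23 in CLPs, above the 0.13 of WT 3 with KO 3. The numbers are therefore not an established pairing in these populations either. The closest libraries of a group, WT 1 and WT 2 of MPPs, had a median squared difference 1.63 times that of counting noise, and all libraries were kept as replicates.

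All 9 members were named; from the other lists, counts and at most 3 genes per population, those past an adjusted p of 0.05 with the largest absolute fold change, all genes where a count was 5 or fewer, and *Egr1*, *Fos*, *Jun* and *Ier2* throughout. Some genes that this rule names are not reported here. *Hspa1a*, *Flt3* and, in the heat map, *Nr4a1* and *Spry2* were named after their values were seen. Alternatives were a pseudocount of 0.1, no filter, a minimum mean of 5 FPKM, TPM, median ratio scaling, quantile normalization, no trend, the replicate block, leaving out each library and no minimum fold change. Promoters and their build, GRCm38.p6, are from RefSeq. Python 3.11.15 with numpy 2.4.6 and pandas 2.3.3 was used for counts and summaries, and matplotlib 3.10.9 for plots.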

Additional observations from a re-analysis of the deposited data

Results flagged for a closer look

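The genotype difference of *Dusp2* differed between the 3 populations, and limma gave this difference an adjusted p of 0.0221 over 18 libraries. *Dusp2* was lower in KO in MPPs (log2 fold change -1.29) and had log2 fold changes of 0.50 in CD115- CDPs and 0.21 in CLPs, neither of which passed its own test. The genotype difference of *Dusp6* differed as well, with a limma adjusted p of 0.0340. *Dusp6* was lower in all 3 KO libraries than in any WT library in MPPs, and higher in KO in 3 of 3 replicate numbers in CD115- CDPs and in CLPs. Without the block *Dusp6* did not pass its own test in CD115- CDPs (limma adjusted p = 0.0937) or in CLPs (0.316). On simulated data the interaction test exceeded its nominal share of false calls.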

How the results depend on the processing

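In MPPs 2 members were called, and 1 with a pseudocount of 0.1, with no filter on expression, with a minimum mean of 5 FPKM or after quantile normalization, *Dusp2* in each case; leaving out 1 library gave 0 to 6, and leaving out both libraries number 3 gave 5. In CD115- CDPs 0 were called, and 2 with the replicate block or without both libraries number 3, in each case *Dusp4* and *Dusp6*; leaving out 1 library gave 0 throughout. In CLPs 1 was called, *Dusp4*, under every alternative that kept the minimum fold change, and 2 without it. The interaction gave 2 members, *Dusp2* and *Dusp6*, under each alternative scale, filter and normalization, and the replicate block added *Dusp1* (limma adjusted p = 0.0142).

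In MPPs same-numbered libraries had correlations of 0.04, 0.48 and 0.47. The libraries number 1 did not vary together, and the numbers are not an established pairing there either. The replicate block there moved the genes called from 183 to 188 and the members called from 2 to 3, with *Dusp4* added (limma adjusted p = 0.0459), and gave *Dusp6* an adjusted p of 0.0561; WT 1 correlated better with KO 2 than with KO 1. Over all genes, 183 were called in MPPs, 74 with a minimum mean of 5 FPKM, 112 after quantile normalization, 475 without a minimum fold change, 54 to 916 without 1 library and 793 without both libraries number 3. In CD115- CDPs 3 were called with no filter and 223 without both libraries number 3, and 0 to 10 without 1 library. In CLPs 434 were called, 283 with a minimum mean of 5 FPKM and 1768 without a minimum fold change. The interaction passed for 304 genes, 189 with a pseudocount of 0.1, 545 with no filter, 125 with a minimum mean of 5 FPKM and 1077 with the block. In CD115- CDPs the block moved the genes called from 13 to 224 and in CLPs from 434 to 476. Beyond those given here and in the results, the block changed no call of a member.

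Directions turned for fold changes that did not pass the test without the block, among them *Atf3* in CD115- CDPs, which passed with it. Leaving out 1 library gave -0.61 to 0.35 for *Dusp5* and -0.45 to 0.12 for *Trim33* in MPPs. In CD115- CDPs the ranges were -0.50 to 0.76 for *Dusp1*, -0.67 to 1.36 for *Dusp5*, -0.59 to 0.16 for *Dusp7*, -1.13 to 1.18 for *Dusp8*, -0.81 to 0.64 for *Dusp10*, -1.07 to 1.53 for *Dusp16*, -1.05 to 0.62 for *Fos*, -0.46 to 0.14 for *Jun* and -0.22 to 1.42 for *Atf3*. In CLPs they were -0.80 to 0.19 for *Dusp1*, -0.0413 to 0.39 for *Dusp2*, -0.17 to 0.16 for *Dusp5*, -0.36 to 0.11 for *Dusp10*, -0.0467 to 0.10 for *Dusp16*, -0.66 to 0.000789 for *Fos*, -0.60 to 0.25 for *Jun* and -0.40 to 0.0700 for *Ier2*. Without both libraries number 3 the log2 fold change was 0.12 for *Dusp5* and 0.0473 for *Trim33* in MPPs, and -0.18 for *Dusp10* and 0.0676 for *Fos* in CD115- CDPs. As TPM it was -0.0233 for *Dusp1*, -0.0722 for *Dusp8* and -0.0916 for *Dusp10* in CD115- CDPs and -0.00805 for *Dusp16* in CLPs, and after quantile normalization 0.00315 for *Dusp5* in CLPs. TPM moved the median of all genes in CD115- CDPs from -0.0748 to -0.19. The cause of these shifts was not tested. *Dusp8* in CLPs lay under the filter on expression and has no value.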
